A study of Homo sapiens with 10 samples.

Results

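The centromere model peaks are the MeDIP-seq peaks whose midpoint fell in 1 of 17 spans of GRCh38, on chromosomes 1 to 12 and 16 to 20, with a summed length of 74.7 Mb. They numbered 27399 of the 297241 peaks in the 5 peak lists used, and the other peaks of chromosomes 1 to 22 and X numbered 257561. The rule used position alone, so peak number, width, height and spacing were free to vary between lists. MeDIP-seq enriches sonicated DNA with an antibody to 5-methylcytosine (5mC) and sequences it. All material came from HEK293T, a human embryonic kidney line with an aneuploid karyotype, and the series is about the long noncoding RNA KCNQ1OT1.

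The 5 conditions were WT, EV, the knockouts labelled K non-rep KO or K rep KO, and a knockdown labelled KD, whose list is named K-KD and which the design text names KCNQ1OT1_K KD. Each condition had 1 library made with the anti-5mC antibody, 1 input library made with no antibody, and 1 peak list. The labels do not spell out EV, rep or non-rep, and they do not say how the knockdown was made or whether a knockout was 1 clone. EV is here the control of K-KD, and WT that of both knockouts. The knockouts were also set against each other. EV set against WT gave the size of a difference between the control lists. No condition had a second list, so no difference between conditions has a replicate check or a test. Intervals in square brackets are exact 95% binomial (Clopper-Pearson) intervals. They cover counting error only, and they are too narrow because neighbouring peaks are not independent. For a relative ratio they take the ratio of the other peaks as fixed, so its counting error is left out.

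Alpha satellite is the tandem repeat on which human centromeres are built. Its monomers lie head to tail, and on each chromosome a set of diverged monomers forms a higher-order repeat that recurs with few changes over a long array. Part of the array carries the centromeric histone CENP-A and the kinetochore, and much of the rest is heavily CpG-methylated heterochromatin. GRCh38 represents these arrays by model sequences, so reads from many near-identical copies may be placed on fewer copies in the assembly, and a peak in a model need not be a single locus. The spans also hold pericentromeric DNA with genes and pseudogenes.

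Of the 119 gene starts with a RefSeq promoter window in the spans (250 bases before to 50 after the start), 10 overlapped a peak in at least 1 list. This was 8.4%, near the 7.22% of the 34842 windows elsewhere. Sequences of 3 are printed because they were among the 6 covered in 3 lists or more, and because CpG, the site of 5mC, can be counted in them. They come from RefSeq (GRCh38.p14), run 5′ to 3′ on the gene's strand, and have CG in capitals. LINC02963, a long noncoding RNA gene, has its window at chr12:34219162-34219461 on the minus strand, with 19 CG. FAM182B, another long noncoding RNA gene, has its window at chr20:25796059-25796358 on the minus strand, with 21 CG. LOC107985915, annotated as protein-coding, has its window at chr2:94207711-94208010 on the plus strand, with 11 CG.
LINC02963: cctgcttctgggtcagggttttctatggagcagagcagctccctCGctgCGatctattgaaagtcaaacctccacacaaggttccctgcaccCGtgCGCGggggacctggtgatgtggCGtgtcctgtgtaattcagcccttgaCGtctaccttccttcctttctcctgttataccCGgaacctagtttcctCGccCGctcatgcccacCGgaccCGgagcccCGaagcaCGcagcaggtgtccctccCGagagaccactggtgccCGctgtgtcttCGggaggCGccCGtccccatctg
FAM182B: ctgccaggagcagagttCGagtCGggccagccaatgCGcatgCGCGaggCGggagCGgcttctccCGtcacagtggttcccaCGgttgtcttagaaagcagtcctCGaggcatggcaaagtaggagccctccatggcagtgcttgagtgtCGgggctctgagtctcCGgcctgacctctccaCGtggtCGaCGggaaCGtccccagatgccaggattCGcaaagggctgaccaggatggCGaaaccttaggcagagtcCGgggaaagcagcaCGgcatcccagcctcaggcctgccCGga
LOC107985915: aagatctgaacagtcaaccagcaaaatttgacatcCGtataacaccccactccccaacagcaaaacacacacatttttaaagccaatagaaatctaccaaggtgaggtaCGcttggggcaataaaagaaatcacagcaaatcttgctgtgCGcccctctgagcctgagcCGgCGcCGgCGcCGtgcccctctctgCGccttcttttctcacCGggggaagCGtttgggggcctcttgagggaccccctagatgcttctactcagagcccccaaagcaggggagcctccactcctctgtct

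Peak numbers in the spans were close to each other in all 5 lists, whereas the other peaks differed up to 3.27-fold. The spans held 5553 peaks in WT, 5479 in EV, 5911 in K rep KO, 5515 in K-KD and 4941 in K non-rep KO. The highest number was 1.2 times the lowest. The other peaks numbered 25179, 82336, 53187, 48404 and 48455 in the same order. The spans made up 6.24% [6.08, 6.4] of the EV list and 18.1% [17.6, 18.5] of the WT list, with 10.0% in K rep KO, 10.2% in K-KD and 9.25% in K non-rep KO between them. Peaks in the spans covered 8.09 Mb in WT, 7.17 Mb in EV, 8.45 Mb in K rep KO, 6.95 Mb in K-KD and 6.16 Mb in K non-rep KO. That was 11.2% of all peak-covered length in EV and 25.9% in WT.

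**Figure D1:**
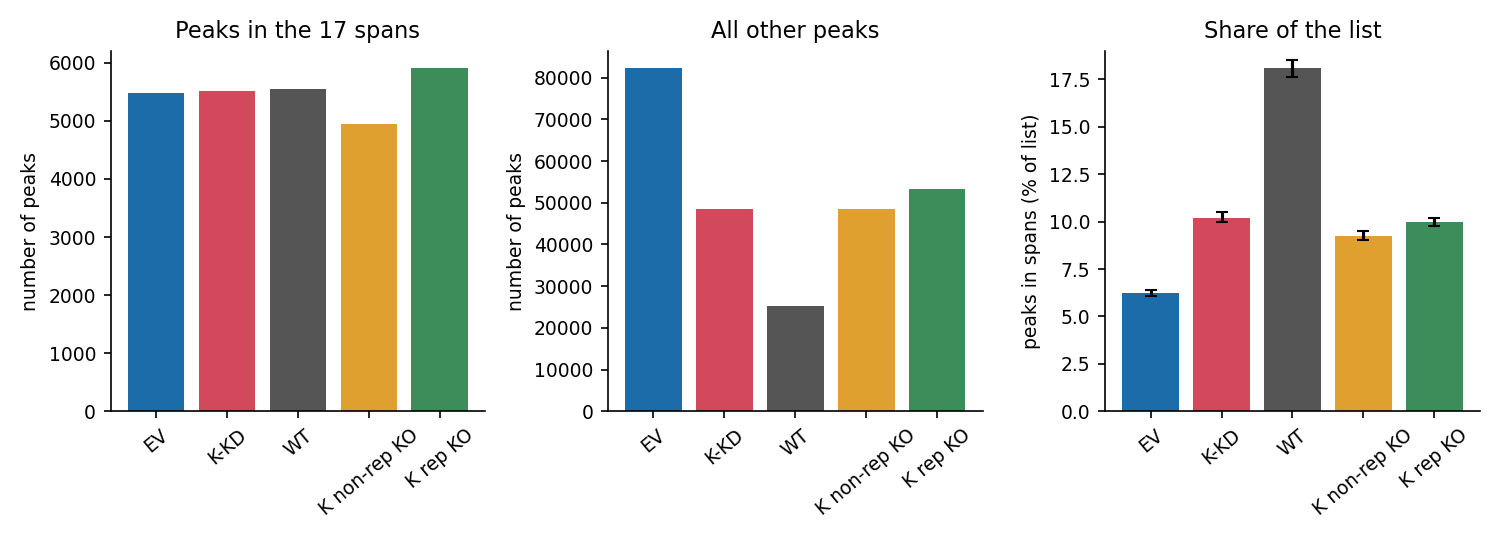
Bars give the number of peaks in the 17 spans (left), the number of all other peaks of chromosomes 1 to 22 and X (centre) and the percentage of the list that fell in the spans (right, with exact 95% binomial intervals), for the 5 lists. The left bars lie between 4941 and 5911, whereas the centre bars lie between 25179 and 82336, so the share is highest in WT at 18.1%.

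Peak number dropped across the edges of the spans in all 5 lists. Within 0.5 Mb inside the edges there were 747 peaks in EV and 668 in WT, and within 0.5 Mb outside them 345 and 150. The 3 perturbed lists had 588 to 719 inside and 206 to 251 outside.

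Centromere model peaks were wider and stood on higher local background than other peaks in all 5 lists. Their median width was 1099 bp in WT, 946 bp in EV, 1028 bp in K rep KO, 941 bp in K-KD and 969 bp in K non-rep KO, and the other peaks had medians of 487 to 687 bp. Peaks of 2500 bp or more made up 9.27 to 12.6% of the centromere model peaks and 0.944 to 2.59% of the others. Summit pileup, the number of fragments over the summit, was decoded from the deposited fold enrichment and −log10 p together with the local background it had been set against. The median pileup was 16 to 23 in the spans and 10 to 13 elsewhere. Median background was 5.84 in WT, 4.51 in EV, 3.97 in K rep KO, 4.79 in K-KD and 3.39 in K non-rep KO, which was 2.38 to 2.99 times that of the other peaks. Median fold enrichment was lower in the spans (3.36 to 3.82) than elsewhere (4.23 to 4.45). The peaks in the spans were thus higher in fragments and lower in enrichment than those outside.

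The 17 spans differed far more from each other than a span differed between lists. Chromosome 18 held the most peaks, with 718 in WT, 642 in EV, 701 in K rep KO, 553 in K-KD and 630 in K non-rep KO. Chromosome 2 held the fewest, with 86, 94, 98, 73 and 66 in the same order, and chromosome 17 had 105 to 124. Per Mb of span, the mean over the lists ran from 19.9 peaks on chromosome 2 to 142 on chromosome 1. Chromosome 12 was the steadiest, with, in that order, 570, 585, 589, 604 and 563 peaks, a range of 1.07-fold. Chromosomes 6 and 10 varied most, by 1.78-fold and 1.76-fold. The remaining spans held 108 to 398 peaks in a list, except chromosomes 1 (454 to 535), 7 (380 to 615) and 16 (337 to 488). Over 747 bins of 100 kb, the peak numbers of any 2 lists had a Spearman correlation of 0.915 to 0.935. These bins share copy number, mappability and assembly gaps, so the correlations only describe a common profile.

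Chromosome 16 stood apart by covered length. Peaks covered 45.5% of its span in WT, 42.2% in EV, 46.0% in K rep KO, 39.7% in K-KD and 32.6% in K non-rep KO. The next was chromosome 12, at 18.1 to 25.4%. The median width on chromosome 16 was 1675 to 2965 bp, against 889 to 1075 bp over the other spans together. The lists with the fewest peaks there, WT with 345 and K rep KO with 337, had the widest, at medians of 2882 and 2965 bp. K non-rep KO had 455 peaks of median 1675 bp.

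The strongest centromere model peaks recurred in every list, at the same places. By deposited −log10 q, the peak at chr5:49601501-49603020 ranked 1 among the span peaks in 4 lists and 2 in EV. Its pileup was 4183 in WT, 3467 in EV, 3435 in K rep KO, 2962 in K-KD and 2961 in K non-rep KO. Its background was just as extreme, at 861 to 1310.1, so that its fold enrichment was only 2.61 to 3.44. The nearest RefSeq gene was EMB, 793172 bp away. A neighbour at chr5:49656761-49661644 had a pileup of 1265 to 1881 and a fold of 2.29 to 2.94.

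A peak at chr3:93712722-93715444 had pileups of 1270 in WT, 1031 in EV, 931 in K rep KO, 689 in K-KD and 860 in K non-rep KO. Its fold enrichment was 5.74, 9.96, 10.3, 5.78 and 9.01 in the same order, lowest in WT and K-KD although WT had the highest pileup. On the same chromosome, chr3:92117856-92120842 had folds of 11.2, 14.4, 18.5, 9.33 and 16.9. At chr4:49100655-49113358, WT and K non-rep KO had a single peak and the other lists 2 or 3 separate ones. Fold enrichment there was 7.0 in WT, 4.5 in EV, 5.36 in K rep KO, 3.86 in K-KD and 6.34 in K non-rep KO. One of the strongest peaks lay in a gene, the long noncoding RNA gene FAM182A, at chr20:26080207-26080981. Its fold was 9.02 in WT, 27.4 in EV, 19.9 in K rep KO, 8.08 in K-KD and 15.1 in K non-rep KO. No list ranked it lower than 25 among its span peaks.

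Of the 3 widest peaks in each list, all but 2 in K non-rep KO lay on chromosome 16. Of all span peaks of 2500 bp or more, chromosome 16 held 25.7 to 32.7%, for example 189 of 581 in EV, and the other spans held the rest. In EV the widest was chr16:36561060-36581672 (20613 bp), followed by chr16:37464383-37478803 and chr16:37044790-37058048. In K-KD they were chr16:37374191-37387214 (13024 bp), chr16:37812769-37825014 and chr16:38023213-38035009. WT had the widest of all lists, chr16:38143426-38166248 (22823 bp), with chr16:36561139-36581624 and chr16:37403408-37421726 next. In K rep KO they were chr16:37636172-37655518 (19347 bp), chr16:37467659-37486862 and chr16:36494894-36513784. K non-rep KO differed, with its widest at chr4:49132993-49145179 (12187 bp), then chr16:38174862-38185571 and chr1:121715119-121725581. After merging overlapping peaks of all lists, the 5 widest regions found in every list were also on chromosome 16. They were chr16:37738787-37782246 (43460 bp), chr16:37365718-37400590, chr16:36870266-36902235, chr16:36947762-36977517 and chr16:36561060-36590495, the last 29436 bp wide.

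K-KD had about as many centromere model peaks as EV and fewer other peaks. The ratio of span peaks, K-KD to EV, was 1.01 [0.969, 1.05], and that of the other peaks was 0.588 [0.581, 0.595]. Dividing the first by the second gave a relative ratio of 1.71 [1.65, 1.78]. It was above 1 in all 17 spans. It was highest on chromosome 7 (2.38, 607 peaks in K-KD and 434 in EV), chromosome 11 (2.19, 337 and 262) and chromosome 16 (2.01, 488 and 414). It was lowest on chromosome 6 (1.2, 157 and 223), chromosome 2 (1.32, 73 and 94) and chromosome 3 (1.35, 284 and 357). On chromosome 16 K-KD had more peaks than EV, but they covered less of the span (39.7% against 42.2%). Without division, the intervals of 3 spans lay above 1 and those of 3 below, so the spans did not move one way.

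K rep KO had 1.06 [1.03, 1.1] times the span peaks of WT, while its other peaks were 2.11 times as many. The relative ratio was 0.504 [0.486, 0.523] and lay below 1 in all 17 spans. Chromosome 6 was highest (0.842, K rep KO 224 peaks, WT 126), then chromosome 20 (0.707, 333 and 223) and chromosome 3 (0.697, 365 and 248). Chromosomes 11 (0.375, 288 and 364), 10 (0.384, 154 and 190) and 8 (0.4, 272 and 322) were lowest. Undivided, chromosomes 6, 20, 3 and 5 had intervals above 1, and chromosomes 8 and 11 had intervals below it.

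K non-rep KO had 0.89 [0.856, 0.925] times the span peaks of WT and 1.92 times its other peaks. The relative ratio was 0.462 [0.445, 0.481], again below 1 in all 17 spans. Chromosomes 16 (0.685, 455 and 345), 20 (0.62, 266 and 223) and 3 (0.562, 268 and 248) were highest. Chromosomes 10 (0.295, 108 and 190), 7 (0.329, 380 and 600) and 8 (0.37, 229 and 322) were lowest. On chromosome 16 K non-rep KO had more peaks than WT, but they covered less of the span (32.6% against 45.5%). By covered length the span ratio was 0.761, a larger deficit than by number, and the relative ratio 0.527. Both knockouts share the WT list in these comparisons.

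Set directly against each other, K rep KO had 1.2 [1.15, 1.24] times the span peaks of K non-rep KO and 1.1 times its other peaks. The relative ratio was 1.09 [1.05, 1.13] by number and 1.26 by covered length. It was above 1 in 13 spans and below in 4. Chromosomes 6 (1.52, 224 and 134), 7 (1.47, 615 and 380) and 2 (1.35, 98 and 66) were highest, and chromosomes 16 (0.675, 337 and 455), 12 (0.953, 589 and 563) and 11 (0.961, 288 and 273) lowest. Chromosome 16 was the one span with an interval below 1, and its covered share was higher in K rep KO.

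EV against WT, the 2 controls, had a relative ratio further from 1 than any perturbed list against its control. Span peaks had a ratio of 0.987 [0.95, 1.02] and other peaks a ratio of 3.27, so that the relative ratio was 0.302 [0.291, 0.313]. Chromosomes 6 (0.541, 223 and 126), 20 (0.474, 346 and 223) and 3 (0.44, 357 and 248) were highest. Chromosomes 11 (0.22, 262 and 364), 7 (0.221, 434 and 600) and 10 (0.224, 139 and 190) were lowest. Against the range set by EV and WT, K-KD lay outside in 11 spans (5 above, 6 below). K rep KO lay outside in 10 (8 above, 2 below). K non-rep KO lay outside in 12, of which 11 were below. With only 2 lists setting the range, another list of the same kind would lie outside it more often than inside. The numbers of spans outside therefore do not set the perturbed lists apart from the controls.

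Peaks inside genes of the spans had ratios close to those of the rest of the genome, and their intervals left out the ratio of the span peaks outside genes in 4 of 5 comparisons. Peaks overlapping a RefSeq gene numbered 36 in WT, 127 in EV, 79 in K rep KO, 73 in K-KD and 68 in K non-rep KO. The ratio of K-KD to EV was 0.575 [0.425, 0.773] for them, beside 0.588 for all other peaks and 1.02 for the span peaks outside genes. K rep KO to WT was 2.19 [1.46, 3.35], beside 2.11 and 1.06. K non-rep KO to WT was 1.89 [1.24, 2.91], beside 1.92 and 0.883. EV to WT was 3.53 [2.42, 5.26], beside 3.27 and 0.97. Between the knockouts the interval of 1.16 [0.829, 1.63] held the values of both classes. The split was the same by 100 kb bins: in the 176 bins with a gene, EV had 279 peaks and WT 99, and in the 571 without one EV had 5200 and WT 5454. Peaks inside genes also had lower background (medians of 1.13 to 2.0) and smaller width (442 to 693 bp) than those outside. This split was chosen after the values had been seen.

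**Figure D2:**
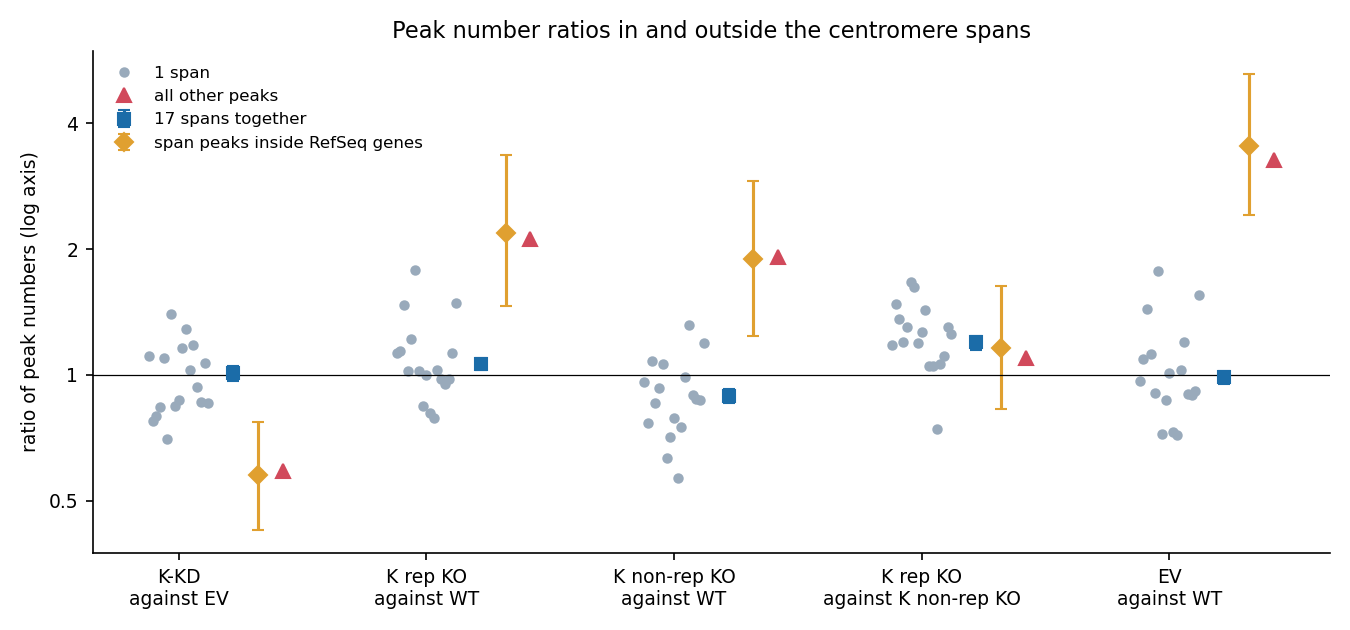
Ratios of peak numbers on a log axis for 5 comparisons, with a grey point for each span, a blue square for the 17 spans together, an orange diamond for span peaks inside RefSeq genes (both with exact 95% intervals) and a red triangle for all other peaks. The squares lie between 0.89 and 1.2, while the diamonds lie near the triangles, for example 3.53 beside 3.27 for EV against WT.

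Local background moved with these ratios. A background of at least 3 times the list's own genome-wide level was found at 77.0% of span peaks in WT, 51.9% in EV, 56.6% in K rep KO, 59.6% in K-KD and 55.3% in K non-rep KO. Among the other peaks the share was, in the same order, 23.8%, 6.05%, 7.4%, 6.35% and 7.11%, with WT again apart. The number of span peaks with such a background was 0.783 times that of WT in K rep KO and 0.639 times in K non-rep KO. Below it the ratios to WT were 2.01 and 1.73, so both knockouts lay on the same side of WT within each class. They lay on opposite sides in the total and among the span peaks outside genes (1.06 and 0.883). Among peaks with a background of at least 3 times that level, the relative ratio was 1.87 [1.78, 1.97] for K-KD against EV, 1.19 [1.14, 1.25] for K rep KO against WT and 1.11 [1.06, 1.17] for K non-rep KO against WT. The 2 ratios against WT thus changed direction, and EV against WT became 0.8. Among peaks below that background the ratios were 1.44, 0.782, 0.737 and 0.512 in the same order. The relative excess in K-KD over EV was therefore seen in both classes, and the relative deficit in the knockouts in the lower class. Undivided, K-KD had 1.16 [1.1, 1.22] times the span peaks of EV in the upper class. In the lower class it had 0.845 [0.799, 0.895] times those of EV. A peak's class depends on each list's own background, and the part of background in the ratios was not tested further.

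Windows of 1 Mb with at least 10 peaks in both lists together placed the spans among the rest of the genome. A window was counted as changed when its ratio was at least 2-fold above or below that of all peaks. In K-KD against EV, 9 of 65 windows centred in a span (13.8%) were higher, against a background of 1.13% of all windows, and 2 were lower, against 6.07%. In K rep KO against WT, 21 of 63 (33.3%) were lower, against 5.98%, and 0 were higher, against 14.6%. In K non-rep KO against WT, 27 of 62 (43.5%) were lower, against 4.68%, and 0 were higher, against 13.9%. Between the knockouts, K rep KO over K non-rep KO, 2 of 63 (3.17%) were higher and 0 lower, near the 2.7% and 3.6% of all windows. In EV against WT, 49 of 65 (75.4%) were lower, against 7.4%, and 2 higher, against 19.9%. The span windows had a median relative ratio of 1.48, 0.536, 0.516, 1.13 and 0.331 in these 5 comparisons, and all windows 0.931, 1.1, 1.1, 0.994 and 1.2.

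A window of chromosome 2, chr2:93000001-94000000, was among the 3 highest or 3 lowest in all 5 comparisons. For K-KD against EV the highest were chr2:93000001-94000000 (18 and 10 peaks), chr7:59000001-60000000 (240 and 156) and chr7:60000001-61000000 (170 and 126). The lowest were chr3:89000001-90000000 (4 and 15), chr8:46000001-47000000 (3 and 10) and chr4:48000001-49000000 (4 and 13). For K rep KO against WT the lowest were chr11:54000001-55000000 (18 and 36), chr2:93000001-94000000 (25 and 37) and chr8:45000001-46000000 (114 and 156). The highest there were chr3:88000001-89000000 (9 and 3), chr2:94000001-95000000 (12 and 4) and chr2:95000001-96000000 (31 and 13). For K non-rep KO against WT, chr2:93000001-94000000 (13 and 37), chr10:41000001-42000000 (33 and 79) and chr10:39000001-40000000 (6 and 12) were lowest. Its highest were chr2:94000001-95000000 (10 and 4), chr3:88000001-89000000 (7 and 3) and chr20:29000001-30000000 (20 and 9).

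Between the knockouts, K rep KO was lowest relative to K non-rep KO at chr16:36000001-37000000 (111 and 163 peaks), chr11:54000001-55000000 (18 and 25) and chr16:37000001-38000000 (176 and 235). It was highest at chr5:50000001-51000000 and chr5:46000001-47000000, each with 7 and 3 peaks, and at chr2:93000001-94000000 (25 and 13). EV was lowest relative to WT at chr2:93000001-94000000 (10 and 37), chr11:53000001-54000000 (75 and 117) and chr7:60000001-61000000 (126 and 187). It was highest at chr3:89000001-90000000, with 15 peaks in EV and 0 in WT, and at chr8:46000001-47000000 (10 and 1) and chr2:94000001-95000000 (16 and 4). Several of these windows rest on fewer than 20 peaks.

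Centromere model peaks overlapped peaks of other lists more often than other peaks did in the 5 comparisons, except for WT beside EV. Merging overlapping peaks of the 5 lists gave 8629 regions in the spans, of which 2062 (23.9%) had a peak in all 5 lists and 35.6% in 1. Of 135529 regions elsewhere, 6.96% were in all 5 and 57.9% in 1. On chromosome 16, 67.1% of 207 regions were in all 5, on chromosome 12 43.1%, and on chromosome 2 1.11% of 271. Merging chains overlapping peaks, so a region in all 5 lists need not hold a base covered in all 5. Peaks covered 32.6 to 46.0% of the chromosome 16 span and 0.974 to 1.72% of that of chromosome 2. The part of peak density in these shares was not tested. Regions in all 5 lists had a median width of 2429.5 bp in the spans and 1667 bp elsewhere, and the part of width in this recurrence was not tested. In pairs of lists, 67.8% of K-KD span peaks overlapped an EV peak and 66.4% of EV span peaks a K-KD peak, against 57.3% and 33.1% of the others. For K rep KO and WT the shares were 66.7% and 71.3% (others 29.6% and 61.4%), and for K non-rep KO and WT 73.7% and 61.0% (others 31.5% and 59.7%). K rep KO shared 58.5% and K non-rep KO 75.9% (others 42% and 46.1%). EV shared 68.8% and WT 65.3% (others 21.4% and 69.3%), so that for WT alone, beside EV, a larger share of the others than of the span peaks was matched. The listed others differ in number between lists, which moves these shares.

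Distances between summits in the spans showed a weak period close to the length of an alpha satellite monomer. For every pair of summits of 1 list and span that lay 300 to 10000 bp apart, the distance was set against trial periods. The mean cosine of distance over period is 1 when all distances are whole multiples and 0 when they are evenly spread. Over 36084 pairs in the 5 lists it was highest at 170 bp (0.0649) and, among longer trial periods up to 360 bp, at 340 bp (0.0595). At 170 bp it was 0.0654 in WT, 0.0878 in EV, 0.0583 in K rep KO, 0.0513 in K-KD and 0.0649 in K non-rep KO. For the other peaks it was -0.00614, -0.003, -0.00734, -0.00408 and -0.00735. No alpha satellite sequence was read, so the label rests on position. The measure was chosen after the data had been seen and the period is the highest of many tried, so it is a description. With peak midpoints in place of summits it was between -0.0215 and 0.00672.

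**Figure D3:**
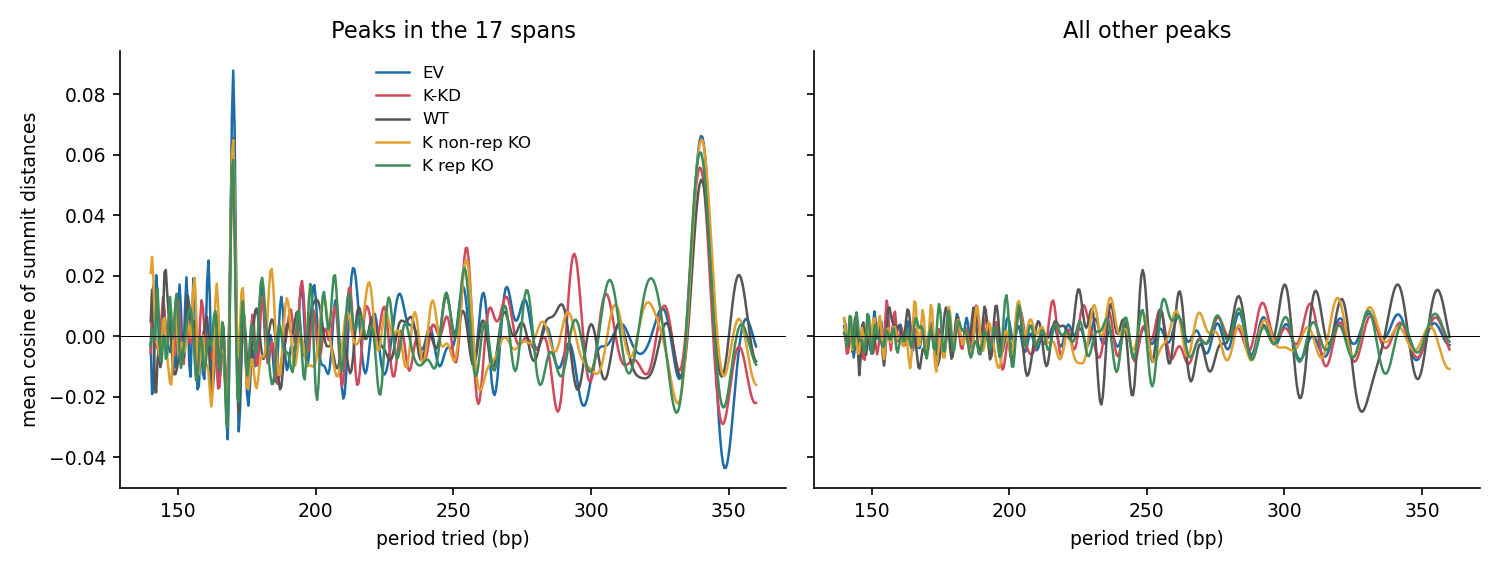
Mean cosine of distances between summits of the same list, against the trial period in bp, for peaks in the 17 spans (left) and all other peaks (right), 1 line for each list. All 5 lines rise at 170 bp and 340 bp on the left, with 0.0513 to 0.0878 at 170 bp and 0.0516 to 0.0662 at 340 bp. On the right the lines lie between -0.00735 and -0.003 at 170 bp. At 340 bp they lie between -0.00516 and 0.0155 there, with WT highest.

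Chromosomes 6 and 11 showed a longer period. They are singled out after their values were seen. On chromosome 6 the mean cosine over trial periods of 400 to 4000 bp was highest at 3056 bp, which is 18.0 times 170 bp, with a value of 0.824 over 1145 pairs. Of these pairs, 84.3% lay within 0.1 of a period of a whole multiple, where an even spread would give 20%. The value was 0.655 in WT, 0.883 in EV, 0.785 in K rep KO, 0.863 in K-KD and 0.868 in K non-rep KO. On chromosome 11 the period was 850 bp, 5.0 times 170 bp, with 0.478 over 1378 pairs and 0.404 to 0.545 in the 5 lists. There 39.1% of pairs lay within 0.1 of a period of a whole multiple, so most pairs lay farther off, and the spacing was much looser than on chromosome 6. On both chromosomes pairs reuse summits and the lists share 1 assembly, so pairs are not separate observations. Each period was read from the 5 lists together, so the values by list are not independent findings. In the other 15 spans the highest mean cosine was 0.0427 to 0.166, and some of the periods were whole multiples of 170 bp (1020 bp on chromosome 5, 6.0 times) while others were not (621 bp on chromosome 1).

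**Figure D4:**
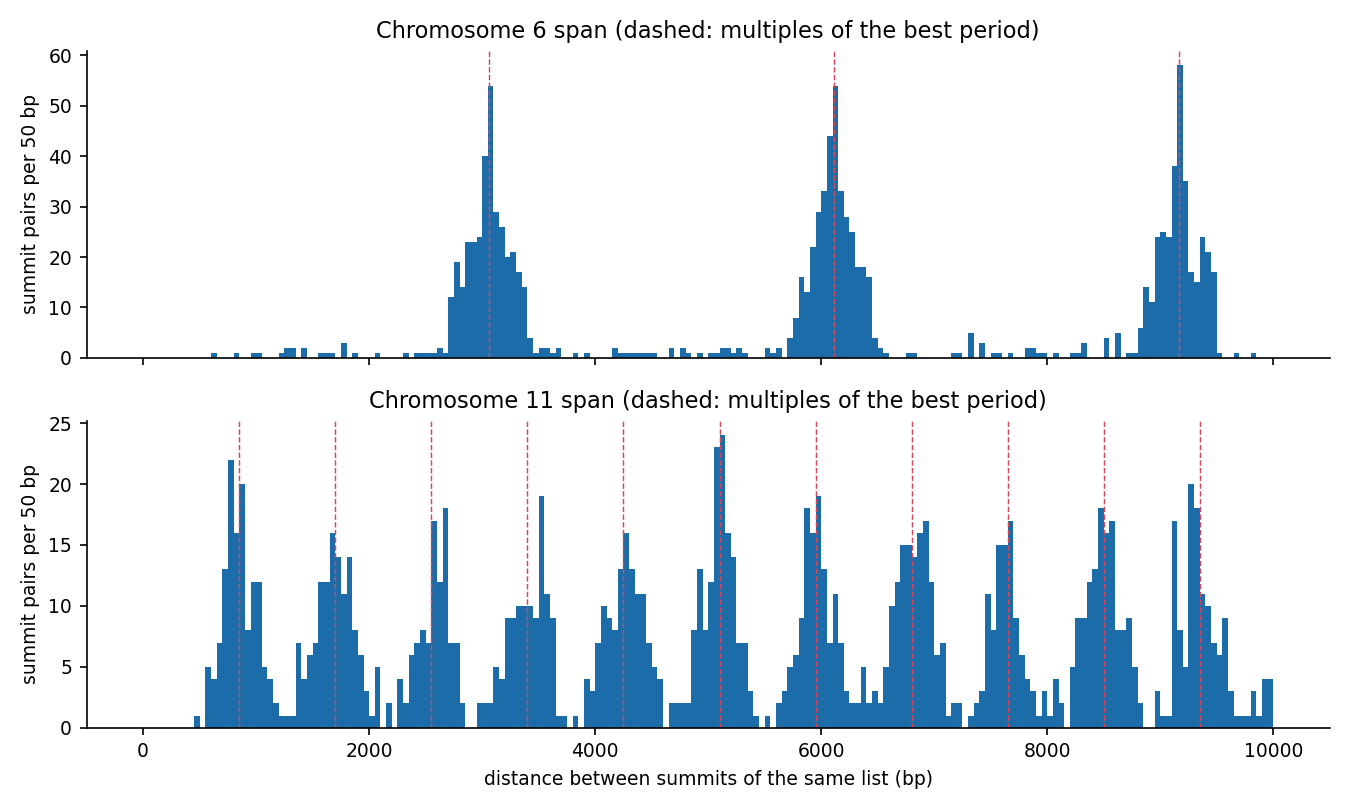
Number of summit pairs of the same list per 50 bp of distance, summed over the 5 lists, for the spans of chromosome 6 (top) and chromosome 11 (bottom), with dashed lines at whole multiples of 3056 bp and 850 bp. On chromosome 6 most pairs fall in 3 groups at the dashed lines (84.3% within 0.1 of the period), and on chromosome 11 groups recur at each dashed line.

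The commonest single distance between 300 and 6000 bp, smoothed over 11 bp, was 3051 bp in WT, 4097 bp in EV, 3066 bp in K rep KO, 3059 bp in K-KD and 1696 bp in K non-rep KO. Each rests on 19 to 23 pairs, where the mean over distances was 6.41 to 8.55. With the 5 lists together, the commonest distance was 3057 bp on chromosome 6 (16 pairs), 5092 bp on chromosome 11 (9 pairs) and 3055 bp on chromosome 7 (19 pairs). In the other spans it rested on 3 to 21 pairs. Within single lists it rested on 1 to 11 pairs in each of the 17 spans, which is too few to compare lists.

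Genes in the spans carried a peak less often in every list than genes elsewhere, as a description with no test. Of 434 RefSeq genes lying wholly in a span, 92 had a peak in some list, among them 32 of 60 protein-coding genes, 31 of 88 long noncoding RNA genes and 29 of 279 pseudogenes. That was 21.2% of the RefSeq genes and 53.3% of the protein-coding ones, beside 42.1% and 72.8% elsewhere. In single lists, 4.61 to 14.3% of the RefSeq genes in the spans had a peak, and 15.6 to 33.6% of those elsewhere. Of the protein-coding genes, 9 had a peak in WT, 24 in EV, 20 in K rep KO, 20 in K-KD and 18 in K non-rep KO. As a share of the 60 this was 15%, 40%, 33.3%, 33.3% and 30%, beside 32.7%, 62.5%, 51.3%, 50.3% and 50% of the 19910 protein-coding genes elsewhere. The lists came in nearly the same order in both sets, with WT lowest and EV highest. Median length of protein-coding genes was 18.7 kb in the spans and 24.2 kb elsewhere, and the part of length was not tested. The ephrin receptor gene EPHA3 (chr3:89107621-89482134) had 0 peaks in WT, 13 in EV, 2 in K rep KO, 3 in K-KD and 2 in K non-rep KO. KCNIP3 (chr2:95297347-95386077), which encodes a calcium-binding partner of potassium channels, had 2, 9, 4, 4 and 6. ANKRD36C (chr2:95848932-95991824) had 6, 9, 8, 0 and 3, and its counts are uncertain because the gene has near-identical copies. EV had the most peaks in these 3 genes, and WT did not have the fewest in ANKRD36C.

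The other 7 of the 10 protein-coding genes with most peaks had 6 to 10 over the 5 lists. ROCK1 (chr18:20946906-21111813), a kinase of actin contractility, had 2 in WT, 1 in EV, 2 in K rep KO, 1 in K-KD and 4 in K non-rep KO. PROS1 (chr3:93873051-93973896), which encodes the anticoagulant protein S, had 0, 2, 1, 2 and 2. The mitochondrial ribosomal protein gene MRPS5 had 8 over the lists, the zinc finger gene ZNF2 9, FRYL 7, the ADP-ribosyltransferase family gene PARP8 7 and LOC107985915 6. The long noncoding RNA gene FAM182A had 1, 5, 6, 4 and 3, and FAM182B 3, 5, 3, 3 and 5. These numbers are too small to rank the lists gene by gene.

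Promoter windows in the spans with a peak numbered 0 in WT, 9 in EV, 2 in K rep KO, 6 in K-KD and 6 in K non-rep KO, out of 119. Of the 34842 windows elsewhere, 0.663% had a peak in WT, 4.62% in EV, 2.77% in K rep KO, 2.81% in K-KD and 2.15% in K non-rep KO. WT was thus lowest and EV highest in both sets, and the numbers in the spans are too small to set them apart from the rest. The window of LINC02963 printed above was covered in 4 lists, with folds of 3.9 in EV, 4.02 in K rep KO, 3.6 in K-KD and 3.96 in K non-rep KO. That of FAM182B was covered in EV (6.99), K-KD (5.34) and K non-rep KO (5.44). LOC107985915 was covered in the same 3 lists, at 3.63, 5.85 and 4.72. LOC101926935 and LOC124904968 on chromosome 20 and LOC128966744 on chromosome 2 were each covered in 3 lists. The dinucleotide CG, which reads the same on both strands, occurred a median of 16.5 times in the 10 covered windows, 11 times in the 109 others of the spans and 14 times in all 34961 windows of chromosomes 1 to 22 and X. At least 1 CG was found in 96.1% of all windows.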

How the data were processed

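MeDIP-seq peak lists of HEK293T cells were used for 5 conditions, 1 list each. Per the submitters' processing notes, the authors used Bowtie2, MACS2, deepTools and GRCh38. Versions, the use of controls, peak-calling thresholds and the placement of repeated reads were not given in the sources used here. Each deposited list gives a score, the fold (a ratio) of enrichment at the summit, its −log10 p and −log10 q, and the summit offset. The lowest deposited −log10 q was 1.3 to 1.31, and in 100.0% of peaks the score was 10 times −log10 q, rounded down. Read depth is unknown. The genome-wide background decoded from the lists was 1.29 fragments in WT, 1.43 in EV, 1.24 in K rep KO, 1.34 in K-KD and 1.02 in K non-rep KO. Its part in the peak numbers was not tested.

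Lists were assigned to conditions by their names. Inside the lists, peak names differ from the labels in both knockouts, so their assignment rests on the list names. The deposited lists included 1 that matched no sample label, which was not used. Pileup P and background B were solved from fold = (P + 1)/(B + 1) and the Poisson upper tail; at least 99.95% of peaks gave a whole pileup that returned the −log10 p within 0.001. Peaks overlapping by 1 bp were counted as shared. The steps were tested on simulated data. Python 3.11.15, numpy 2.4.6, pandas 2.3.3 and scipy 1.17.1 were used. RefSeq genes (GRCh38.p14) were matched by position. The members and lists were chosen with earlier results of these data known. Named were the 3 highest and 3 lowest spans and windows of each comparison, the 3 strongest and 3 widest peaks of each list, the 5 widest regions in all lists and the 10 protein-coding genes with most peaks. Alternatives were stricter −log10 q (5) or fold (4), equal list lengths, covered length, narrower spans, no fullest span, the median over spans and other peaks of the same chromosomes.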

Additional observations from a re-analysis of the deposited data

Results flagged for a closer look

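In the total over the spans, the 2 knockouts lay on opposite sides of the WT list they share. The ratio of span peaks to WT was 1.06 for K rep KO but 0.89 for K non-rep KO, with 1 list each. Within each background class both lay on the same side. At a background of at least 3 times the genome level the ratios were 0.783 and 0.639, and below it 2.01 and 1.73. Inside genes they were 2.19 and 1.89. Outside genes, where most span peaks lay, they were 1.06 and 0.883, again on opposite sides. The difference between the knockouts was not tested against replicates.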

How the results depend on the processing

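The direction of the relative ratio of span to other peaks was the same in all 8 alternatives planned for each of the 5 comparisons. K-KD against EV (1.71) was 2.09 with −log10 q of at least 5, 1.62 with fold of at least 4 and 1.59 as the median over spans. K rep KO against WT (0.504) was 0.607 and 0.637 with those limits, 0.587 with lists of equal length, 0.664 by covered length and 0.485 as the median over spans. K non-rep KO against WT (0.462) was 0.499 and 0.538 with those limits and 0.527 by covered length. The ratio between the knockouts, K rep KO over K non-rep KO (1.09), was 1.22 and 1.18 with them, 1.26 by covered length and 1.14 as the median over spans. EV against WT (0.302) was 0.338 with fold of at least 4, 0.351 with equal length, 0.361 by covered length and 0.288 with other peaks of the same chromosomes. The split by local background, chosen after seeing the data, gave 1.87 above and 1.44 below 3 times the genome background for K-KD against EV and 0.8 and 0.512 for EV against WT. It reversed K rep KO against WT (1.19 above, 0.782 below) and K non-rep KO against WT (1.11 above, 0.737 below), and the cause was not tested.

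Sharing was lower under stricter settings, and in 9 of 10 cases it left the interval of the main value. An overlap of 50% of both peaks can only lower it. With an overlap of 50% of both peaks, the share of span peaks matched was 41.5% of EV by K-KD, 46.5% of WT by K rep KO, 39.2% of WT by K non-rep KO, 46.2% of K non-rep KO by K rep KO and 41.8% of WT by EV. With −log10 q of at least 5 it was 52.6% of EV by K-KD, 65.6% of WT by K rep KO, 47.7% of WT by K non-rep KO and 54.6% of WT by EV, while K non-rep KO by K rep KO stayed at 75.5%. The commonest summit distance moved in 11 of 15 cases. It stayed at 3051 bp in WT under both −log10 q of at least 5 and neighbouring summits, and with the latter at 3059 bp in K-KD and 1696 bp in K non-rep KO. With −log10 q of at least 5 it was 5100 bp in EV, 4079 bp in K non-rep KO, 2012 bp in K rep KO and 2690 bp in K-KD. With neighbouring summits only it was 3041 bp in EV and 1008 bp in K rep KO. With midpoints it was 2986 bp in EV, 2648 bp in K non-rep KO, 3426 bp in K rep KO, 1600 bp in K-KD and 2534 bp in WT. The mean cosine at 170 bp with midpoints turned to -0.00404 in K-KD and -0.0215 in K non-rep KO, and with −log10 q of at least 5 it rose to 0.151 in EV, 0.125 in K non-rep KO, 0.112 in WT, 0.0822 in K rep KO and 0.076 in K-KD. No paired analysis was possible because each condition had 1 peak list. Depth was unknown, so a peak missing from a list is not evidence that methylation was lost there.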

Other observations

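The regions found in a single list were spread differently in the spans than elsewhere. Of the 3072 span regions found in 1 list, 794 were in K rep KO, 677 in WT, 601 in EV, 584 in K-KD and 416 in K non-rep KO. Elsewhere 33630 of 78419 such regions (42.9%) were in EV and 3987 (5.08%) in WT. The other lists had 18.1% (K rep KO), 17.5% (K-KD) and 16.4% (K non-rep KO) there. Of the span regions missing from exactly 1 list, 287 (29.7%) were missing from K non-rep KO and 109 (11.3%) from K rep KO. WT missed 15.9%, EV 18.9% and K-KD 24.1%. Elsewhere K non-rep KO missed 12.3%, K rep KO 10.1%, WT 47.1%, EV 4.65% and K-KD 25.9%. Among regions missing from 1 list, the shares of K rep KO and K-KD were thus near their shares elsewhere. Among regions found in 1 list, K rep KO had 25.8% in the spans and 18.1% elsewhere, and K-KD 19.0% and 17.5%.

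The 100 kb bins with most peaks were chr12:34900001-35000000, with 28 in WT, 33 in EV, 33 in K rep KO, 26 in K-KD and 31 in K non-rep KO, and chr1:122300001-122400000, with 25, 33, 35, 31 and 24.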
